A study of Mus musculus with 20 samples.

Results

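The genes described here are 35 genes of fatty acid oxidation, ketone body metabolism and fatty acid handling in the mouse colon. They were chosen by symbol, and each gene was read from the probe sets whose annotation gave that symbol alone. Of the 35 genes, 34 had such a probe set and 33 were tested among 16739 genes. The exceptions were Acsl1, a long-chain acyl-CoA synthetase, whose expression is not analysed here, and Fabp1, a fatty acid binding protein. Fabp1 lay between 3.67 and 4.20 on the log2 scale on all 20 arrays, under the level of 5.30 below which probe sets were treated as dim.

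Total RNA of the middle part of the colon from female C57BL/6JOlaHsd mice about 11 weeks old was hybridised to Affymetrix arrays, 1 array per mouse and 4 mice per group. The cyclosporine colitis group received dextran sulphate sodium (DSS), which damages the lining of the colon, as a 3% solution in the drinking water for 5 days. It also received cyclosporine A, an immunosuppressant that acts on T cells through calcineurin, at 25 mg/kg by mouth each day from day 1 to day 15. Probiotic colitis mice received the same DSS course and a mixture of the strains L930BB and IM386 by stomach tube before and during it. In the untreated colitis group DSS was given with saline. The probiotic healthy and untreated healthy groups received the mixture or saline without DSS. No healthy group received cyclosporine, which was suspended in methocel, so the drug and its vehicle cannot be told apart. The middle colon holds muscle, fat and immune cells beside the epithelium, and the arrays report their summed RNA. The labels give 5 mice per cage but not the cage of each mouse.

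Beta-oxidation shortens fatty acids in repeated cycles of dehydrogenation, hydration, a further dehydrogenation and thiolysis. Acyl groups enter mitochondria through the carnitine shuttle, and the electrons of the first step reach the respiratory chain through the electron transfer flavoprotein. In the colon, the epithelium takes up butyrate made by bacteria and oxidises it as a main fuel, in part by way of ketone bodies. Nuclear receptors of the PPAR family, which bind DNA as heterodimers with RXR, activate many of these genes.

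Because these genes include many known PPAR targets, the 250 bases before the RefSeq start of each gene were searched on both strands for DR1, the element that PPAR and RXR bind, and for the core AGGTCA. DR1 was taken as AGGNCA, then 1 base of any kind, then AGGNCA again. Of the 35 genes, 30 had a promoter in the RefSeq table of the build GRCm38.p6. Of these 30, 28 were tested on the arrays, and the others were Fabp1 and Acsl1. DR1 was found in 0 of the 28 tested genes, where 0.321% of all 13103 tested genes with a promoter hold it, and in Fabp1. At so low a share, 0 of 28 does not set the tested genes apart from the rest. The core was found in 6 of the 28 (21.4%), against 13.8% of all tested genes, and in Fabp1. The core of Fabp1 lies inside its DR1 match, so the searches overlap. The GC box core GGGCGG stood in 16 of the 28 (57.1%), against 55.9% of all tested genes, and in Acsl1. These matches describe letters in a fixed window and are not binding sites. The matches are shown with capitals marking the element, each written 5′ to 3′ on the strand of its gene.
Fabp1, DR1, chr6:71199787-71199849, plus strand: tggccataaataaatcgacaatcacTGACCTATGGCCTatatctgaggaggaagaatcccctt
Acadvl, core, chr11:70015498-70015527, minus strand: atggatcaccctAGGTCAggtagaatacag
Acadm, core, chr3:153944875-153944893, minus strand: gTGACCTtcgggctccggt
Echs1, core, chr7:140116487-140116516, minus strand: accagcccgctcAGGTCAcgggtccacccc
Cpt1a, core, chr19:3323195-3323224, plus strand: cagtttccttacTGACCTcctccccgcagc
Cd36, core, chr5:17836107-17836136, minus strand: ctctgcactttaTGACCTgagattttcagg
Plin2, core, chr4:86670260-86670289, minus strand: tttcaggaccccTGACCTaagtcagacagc

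The thioesterase genes Acot2 and Acot1 are next to each other on chromosome 12 and are near copies. The 250 bases before each start are shown to let the pair be compared. Capitals mark the GC box core in either orientation, with 0 matches in Acot2 and 1 in Acot1.
Acot2, chr12:83987611-83987860, plus strand: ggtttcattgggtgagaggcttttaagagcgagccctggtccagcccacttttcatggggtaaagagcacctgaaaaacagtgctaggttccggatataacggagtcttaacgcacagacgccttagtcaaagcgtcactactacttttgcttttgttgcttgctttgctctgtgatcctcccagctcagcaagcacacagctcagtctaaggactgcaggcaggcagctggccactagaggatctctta
Acot1, chr12:84009252-84009501, plus strand: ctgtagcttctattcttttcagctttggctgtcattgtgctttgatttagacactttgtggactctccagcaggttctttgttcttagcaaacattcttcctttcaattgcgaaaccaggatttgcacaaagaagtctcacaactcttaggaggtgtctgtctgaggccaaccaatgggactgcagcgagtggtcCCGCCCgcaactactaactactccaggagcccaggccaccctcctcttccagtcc

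All levels below are log2 values as deposited, and all changes are differences of group means on that scale ± the standard error of the fit, with 4 mice per group. A gene rose or fell where the Benjamini-Hochberg adjusted p of limma over all 16739 genes was under 0.05. Array medians lay between 6.22 and 6.29, and array pairs correlated at 0.965 to 0.994. On the first 3 principal components (55.9%, 7.52% and 6.89% of the variance) probiotic colitis mouse 8, untreated colitis mouse 6 and untreated healthy mouse 2 were distant from their group mates. The 10 epithelial markers averaged 10.23 to 10.65 on each array. With 4 arrays a group, precision is limited by their number.

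Untreated colitis was compared with untreated healthy to ask what DSS injury does to these genes. Of the 33 tested genes 24 fell and the other 9 did not pass. Across all tested genes 26.1% passed, 14.4% falling and 11.7% rising. The median log2 change was -0.38 over the 33 genes and -0.03 over all genes. Single genes ranged between -1.05 for Acot2 and 0.29 for Angptl4. On 21 of the 33 genes all 4 colitis arrays lay below all 4 healthy arrays, as on 14% of all genes, and on 0 the reverse held, as on 10.6%. Fewer cells of a type and less RNA per cell cannot be told apart in whole tissue.

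**Figure D1:**
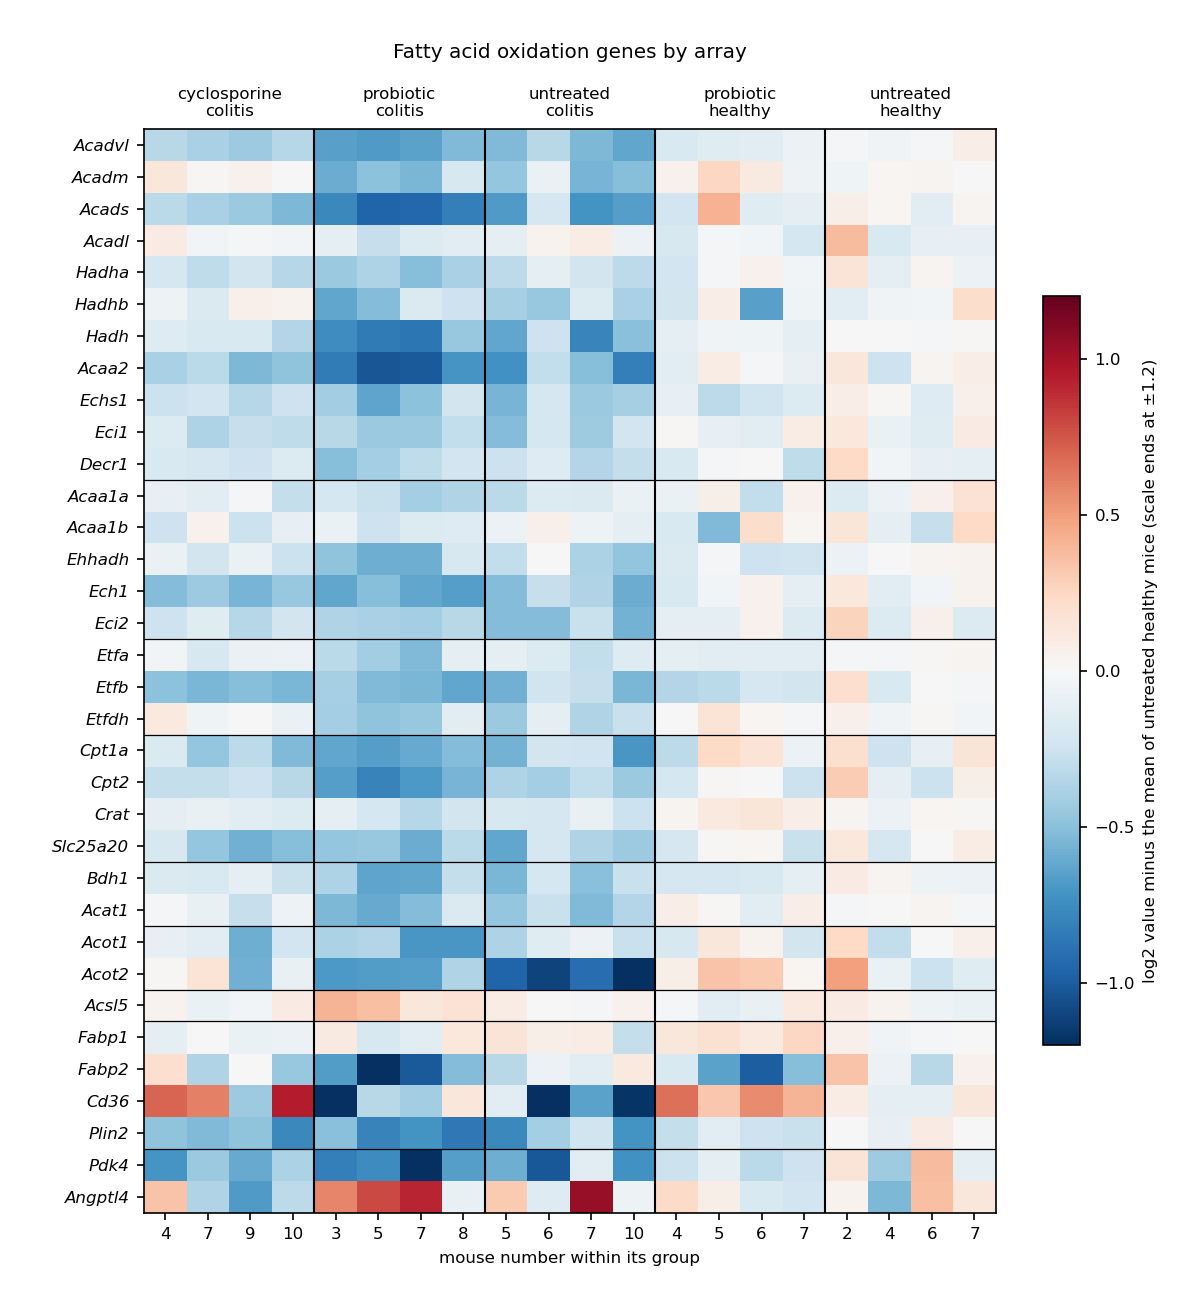
Log2 value of the 34 genes with a probe set on each of the 20 arrays minus that gene's mean in untreated healthy mice, with genes in rows ordered by role and mice in columns by group. Blue is lower and red higher. The rows of the matrix enzymes other than Acadl are mostly blue in untreated and probiotic colitis, and Acot2 is dark blue in the 4 untreated colitis mice.

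In the mitochondrial matrix 9 of the 11 enzymes of the oxidation cycle fell, with a median log2 change of -0.40. Acadvl, the dehydrogenase for very long acyl chains, had log2 levels of 8.23, 8.43, 8.23 and 8.14 in untreated colitis mice, against 8.73, 8.72, 8.75 and 8.84 in untreated healthy mice. Every colitis array lay below every healthy array, and the change was -0.51 ± 0.06 (adjusted p = 1.9e-05), or 0.704 times the healthy level. Acads, the dehydrogenase for short chains such as butyryl-CoA, had 9.002, 9.47, 8.96 and 9.01 in untreated colitis mice, against 9.75, 9.70, 9.55 and 9.71 in untreated healthy mice. Its groups did not overlap, mouse 6 being the highest of the colitis group, and the change was -0.57 ± 0.12 (adjusted p = 0.00223). Acadm, the medium-chain dehydrogenase, had 10.38, 10.77, 10.29 and 10.34 in untreated colitis mice, against 10.79, 10.87, 10.88 and 10.84 in untreated healthy mice. Here colitis mouse 6 came just under the lowest healthy array, and the change was -0.40 ± 0.10 (adjusted p = 0.00586).

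Enzymes of the later steps were also lower. Hadh, which oxidises medium- and short-chain hydroxyacyl-CoA, had log2 levels of 11.34, 11.71, 11.17 and 11.46 in untreated colitis mice, against 11.97, 11.97, 11.95 and 11.97 in untreated healthy mice. The healthy mice were nearly equal and the colitis mice spread over a wide range below them, with a change of -0.54 ± 0.10 (adjusted p = 0.000497). Acaa2, the matrix thiolase, had 8.51, 8.94, 8.72 and 8.41 in untreated colitis mice, against 9.37, 8.98, 9.27 and 9.32 in untreated healthy mice. Its highest colitis array was just under its lowest healthy array, and the change was -0.59 ± 0.11 (adjusted p = 0.000589). Echs1, the short-chain hydratase, had 9.06, 9.42, 9.18 and 9.22 in untreated colitis mice, against 9.70, 9.63, 9.47 and 9.68 in untreated healthy mice. The groups did not overlap, and the change was -0.40 ± 0.09 (adjusted p = 0.00222). Eci1 (-0.35 ± 0.08) and Decr1 (-0.26 ± 0.09), auxiliary enzymes for unsaturated chains, fell too.

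The trifunctional protein is built from Hadha and Hadhb, whose genes lie head to head on chromosome 5 with starts 273 bases apart. The sequence between them is shown as the 250 bases before the start of Hadha, with its GC box core in capitals.
Hadha, chr5:30154981-30155230, minus strand: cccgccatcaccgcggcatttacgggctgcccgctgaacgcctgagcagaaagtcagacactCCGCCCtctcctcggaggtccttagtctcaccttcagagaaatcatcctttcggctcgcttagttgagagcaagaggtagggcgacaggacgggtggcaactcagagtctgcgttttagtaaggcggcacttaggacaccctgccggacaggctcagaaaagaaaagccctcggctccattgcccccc
Hadha fell by 0.24 on the log2 scale in untreated colitis (SE 0.07, adjusted p = 0.0219). Hadhb changed by -0.35 ± 0.13 and did not pass (adjusted p = 0.0568, 95% interval -0.63 to -0.08), at log2 levels of 5.60 to 5.89 in untreated colitis and 5.91 to 6.27 in untreated healthy mice, near the dim end of the array. Acadl, the long-chain dehydrogenase, had levels of 10.83 to 11.02 in untreated colitis and 10.76 to 11.31 in untreated healthy mice. Its groups overlapped and its change was -0.01 ± 0.10, with a 95% interval of -0.21 to 0.19.

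Of 5 genes of peroxisomal or accessory oxidation 3 fell. Ech1, a dienoyl-CoA isomerase, had log2 levels of 10.05, 10.29, 10.21 and 9.97 in untreated colitis mice, against 10.70, 10.43, 10.54 and 10.61 in untreated healthy mice. Eci2, an enoyl-CoA isomerase, had 7.76, 7.76, 8.02 and 7.72 in untreated colitis mice, against 8.55, 8.12, 8.34 and 8.12 in untreated healthy mice. Neither gene's groups overlapped, and their log2 changes were -0.44 ± 0.08 for Ech1 (adjusted p = 0.000388) and -0.47 ± 0.09 for Eci2 (adjusted p = 0.000819). Ehhadh, the peroxisomal bifunctional enzyme, fell by 0.29 (SE 0.10, adjusted p = 0.0342). The peroxisomal thiolase genes Acaa1a (-0.18 ± 0.09) and Acaa1b (-0.05 ± 0.13) did not pass, and as near copies they may share probe signal.

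Electrons leave the first step through Etfa and Etfb, the subunits of the electron transfer flavoprotein, and Etfdh, which hands them to ubiquinone. Etfb had log2 levels of 8.25, 8.58, 8.55 and 8.28 in untreated colitis mice, against 9.03, 8.63, 8.83 and 8.80 in untreated healthy mice. The colitis mice formed a high pair and a low pair, both under the healthy mice, and the change was -0.41 ± 0.09 (adjusted p = 0.00172). Etfdh fell by 0.30 (SE 0.08, adjusted p = 0.012), and Etfa changed by -0.18 ± 0.07 without passing (adjusted p = 0.0714).

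All 4 genes of the carnitine shuttle fell, with a median log2 change of -0.39. Cpt1a, which commits acyl groups to mitochondrial entry, changed by -0.43 ± 0.13 (adjusted p = 0.0189), and Cpt2, which returns them to coenzyme A in the matrix, by -0.38 ± 0.10 (adjusted p = 0.00665). Slc25a20, the carnitine carrier, changed by -0.41 ± 0.10 (adjusted p = 0.00725). Crat, which makes acetylcarnitine, changed by -0.18 ± 0.06 (adjusted p = 0.0235) on the probe set with the higher mean, and its other probe set, which is dimmer, changed by -0.07 ± 0.09 (adjusted p = 0.656).

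Both tested genes of ketone body metabolism fell. Bdh1, the mitochondrial hydroxybutyrate dehydrogenase, had log2 levels of 7.34, 7.68, 7.39 and 7.63 in untreated colitis mice, against 7.99, 7.93, 7.84 and 7.83 in untreated healthy mice. Acat1, the acetoacetyl-CoA thiolase, had 10.89, 11.09, 10.83 and 11.01 in untreated colitis mice, against 11.34, 11.36, 11.39 and 11.33 in untreated healthy mice. No arrays overlapped on either gene, and the changes were -0.38 ± 0.09 for Bdh1 (adjusted p = 0.00305) and -0.40 ± 0.09 for Acat1 (adjusted p = 0.00229).

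Acot2, the mitochondrial thioesterase that frees fatty acids from coenzyme A, had log2 levels of 8.18, 8.03, 8.22 and 7.93 in untreated colitis mice, against 9.62, 9.06, 8.88 and 8.99 in untreated healthy mice. All colitis arrays lay below the lowest healthy one, and the change of -1.05 ± 0.16 (adjusted p = 0.000104, 0.484 times the healthy level) was the lowest of the 33. Acot1, the cytosolic member next to it, changed by -0.21 ± 0.13 and did not pass (adjusted p = 0.241, 95% interval -0.48 to 0.05). It lay between 5.41 and 6.35 over all arrays, and probes of near copies can share signal, so the split between the pair is uncertain.

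Among genes of uptake and storage, Plin2, the coat protein of lipid droplets, had log2 levels of 9.36, 9.72, 9.89 and 9.42 in untreated colitis mice, against 10.12, 10.03, 10.23 and 10.14 in untreated healthy mice. Its groups did not overlap, and it changed by -0.54 ± 0.11 (adjusted p = 0.00104). Cd36, a fatty acid translocase also made by fat cells, endothelium and macrophages, had 8.30, 7.14, 7.78 and 7.25 in untreated colitis mice, against 8.52, 8.31, 8.31 and 8.56 in untreated healthy mice. The colitis mice spread widely, mouse 5 nearly reaching the healthy mice, and the change was -0.81 ± 0.29 (adjusted p = 0.0427). Neither Fabp2, an intestinal fatty acid binding protein (-0.10 ± 0.19, 95% interval -0.50 to 0.29), nor Acsl5, an acyl-CoA synthetase of the epithelium (0.03 ± 0.07, 95% interval -0.12 to 0.18), passed.

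Pdk4, the PPAR-responsive kinase that shuts off pyruvate dehydrogenase, fell by 0.62 (SE 0.17, adjusted p = 0.0117). Angptl4, a PPAR-responsive inhibitor of lipoprotein lipase that hypoxia and bacteria also regulate, changed by 0.29 ± 0.27 and did not pass (adjusted p = 0.473). It ranged over 6.20 to 7.41 in untreated colitis mice, highest in mouse 7, and over 5.82 to 6.72 in untreated healthy mice.

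Of the 24 calls, 13 passed in all 30 alternative settings and left-out arrays, and 20 genes fell without the 3 arrays that were distant from their groups. Leaving out untreated colitis mouse 10 ended the calls of Hadha, Decr1, Ehhadh, Cpt1a, Crat and Cd36 (adjusted p = 0.0586 to 0.121), untreated colitis mouse 5 those of Hadha, Decr1, Ehhadh and Cpt1a, untreated colitis mouse 7 those of Decr1, Ehhadh and Cd36, and untreated colitis mouse 6 that of Cd36 (adjusted p = 0.122). Untreated healthy mouse 2 ended those of Hadha, Decr1, Cpt1a, Crat and Cd36, mouse 4 those of Ehhadh and Cd36, mouse 6 those of Hadha, Ehhadh, Crat and Cd36, and mouse 7 those of Ehhadh, Cpt1a, Crat and Cd36. Cd36 was also lost without probiotic colitis mouse 7 or probiotic healthy mouse 6 or 7, which enter its test only through the shared spread. The adjusted p of these 6 genes lay between 0.0504 and 0.122 where a call was lost.

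The other genes of the pathway were described through 6 lists. Of 26 tested genes (32 listed) of beta-oxidation and ketone bodies outside the 35, 14 fell (median log2 change -0.27), led by the isomerase gene Eci3 (-1.25 ± 0.13), the peroxisomal reductase Decr2 (-0.58 ± 0.10) and the propionyl-CoA carboxylase subunits Pcca (-0.45 ± 0.08) and Pccb (-0.56 ± 0.11). Of 9 genes of short-chain fatty acid transport, activation and sensing 5 fell and 2 rose. Slc16a1, the monocarboxylate transporter that carries butyrate, fell by 0.76 (SE 0.10), the sodium-coupled transporter Slc5a8 by 0.65 (SE 0.14) and the acetyl-CoA synthetase Acss2 by 0.95 (SE 0.13). Ffar2, a short-chain fatty acid receptor also found on neutrophils, rose by 0.66 ± 0.12.

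The remaining lists held regulators and fuel genes. Beside their counts, 14.4% of all tested genes fell and 11.7% rose in this comparison. Of 16 PPAR and coactivator genes 5 fell, among them Ppara (-0.48 ± 0.09), Ppard (-0.45 ± 0.11), the coactivator Ppargc1b (-0.34 ± 0.11) and Hnf4a (-0.25 ± 0.08), a nuclear receptor of the epithelium. Pparg, named here after its value was seen because it is the main PPAR of the colonic epithelium, changed by -0.05 ± 0.11 and did not pass (adjusted p = 0.795). Of 20 pyruvate dehydrogenase and glycolysis genes 5 fell and 1 rose, with Pdk2 (-0.88 ± 0.12), the phosphatase Pdp2 (-0.58 ± 0.11) and the phosphofructokinase Pfkm (-0.50 ± 0.14) lower and Pgk1, a glycolytic kinase, higher (0.29 ± 0.09). Of 22 uptake and activation genes 4 fell and 3 rose, the transporter Slc27a1 falling (-0.58 ± 0.10) and Slc27a2 (0.90 ± 0.21), Acsl4 (0.56 ± 0.14) and Fabp5 (0.35 ± 0.10) rising. Of 12 lipid droplet and lipolysis genes 4 fell, the lipase genes Mgll (-0.41 ± 0.08) and Pnpla2 (-0.34 ± 0.09), the lipase coactivator Abhd5 (-0.29 ± 0.06) and Plin4 (-0.44 ± 0.14).

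**Figure D2:**
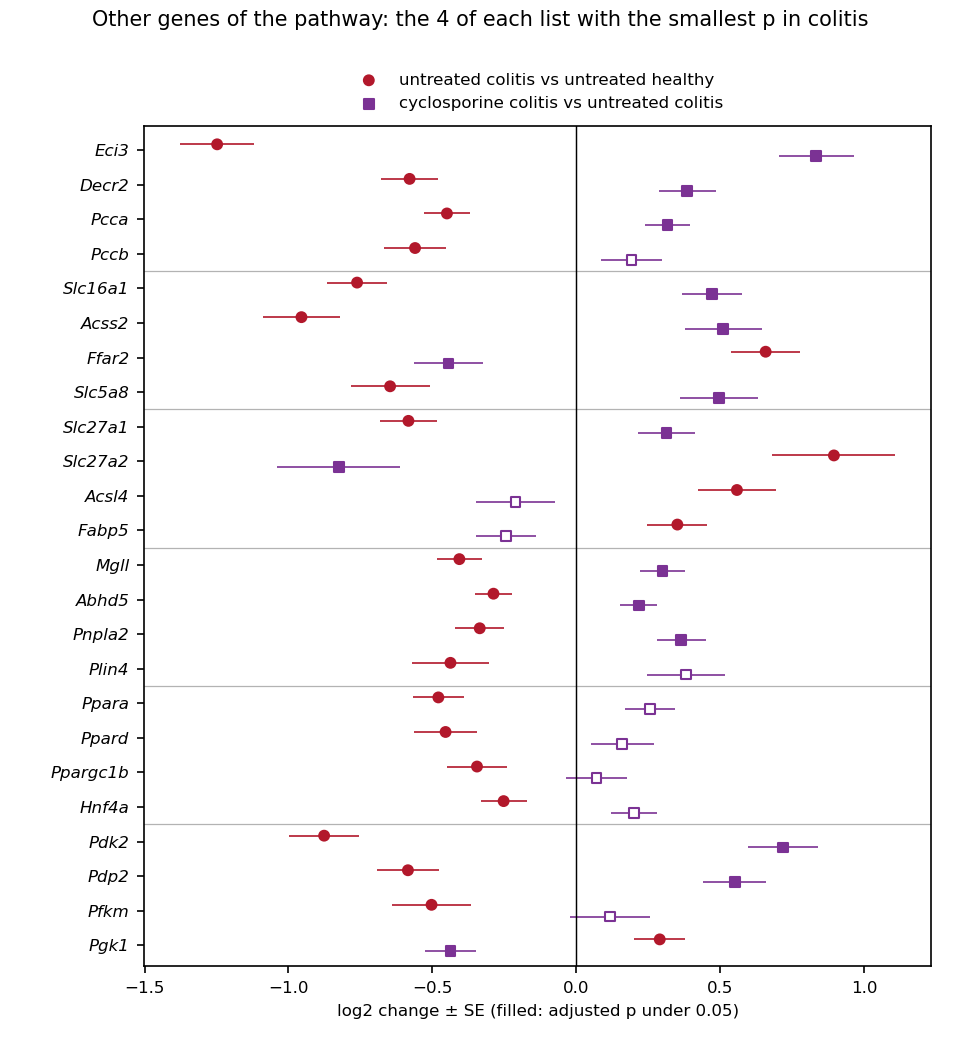
Log2 change ± SE of the 4 genes with the smallest p in untreated colitis vs untreated healthy (circles) in each of 6 pathway lists, with cyclosporine colitis vs untreated colitis (squares) beside it; filled symbols passed. From the top the blocks are beta-oxidation and ketone bodies, short-chain fatty acids, uptake and activation, lipid droplets, PPAR regulators and pyruvate use, and both comparisons use the same untreated colitis arrays.

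Markers of other cell types moved with colitis. Of 11 surface colonocyte markers 6 fell and 1 rose, and their mean log2 level per array was 10.36 to 10.73 in untreated colitis and 11.01 to 11.39 in untreated healthy mice. Of 10 general epithelial markers 3 fell, at 10.23 to 10.54 in untreated colitis and 10.51 to 10.65 in untreated healthy mice. Smooth muscle markers fell in 12 of 14, at 9.67 to 10.02 in untreated colitis and 10.38 to 10.50 in untreated healthy mice. Neutrophil markers rose in 8 of 10 (6.79 to 9.87 in untreated colitis, 5.98 to 6.20 in untreated healthy) and macrophage markers in 9 of 12 (7.90 to 9.15 in untreated colitis, 7.59 to 7.67 in untreated healthy). T cell markers rose in 6 of 7, B and plasma cell markers in 6 of 7 and endothelial markers in 2 of 9. Adipocyte markers fell in 1 of 9, at 6.47 to 7.17 in untreated colitis and 7.08 to 7.47 in untreated healthy mice. Posterior Hox genes, whose expression depends on the site along the gut, fell in 5 of 7, at 7.38 to 8.11 in untreated colitis and 8.33 to 8.39 in untreated healthy mice. No erythroid marker had a tested probe set. The part of these shifts in the changes of the 33 genes was not tested.

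**Figure D3:**
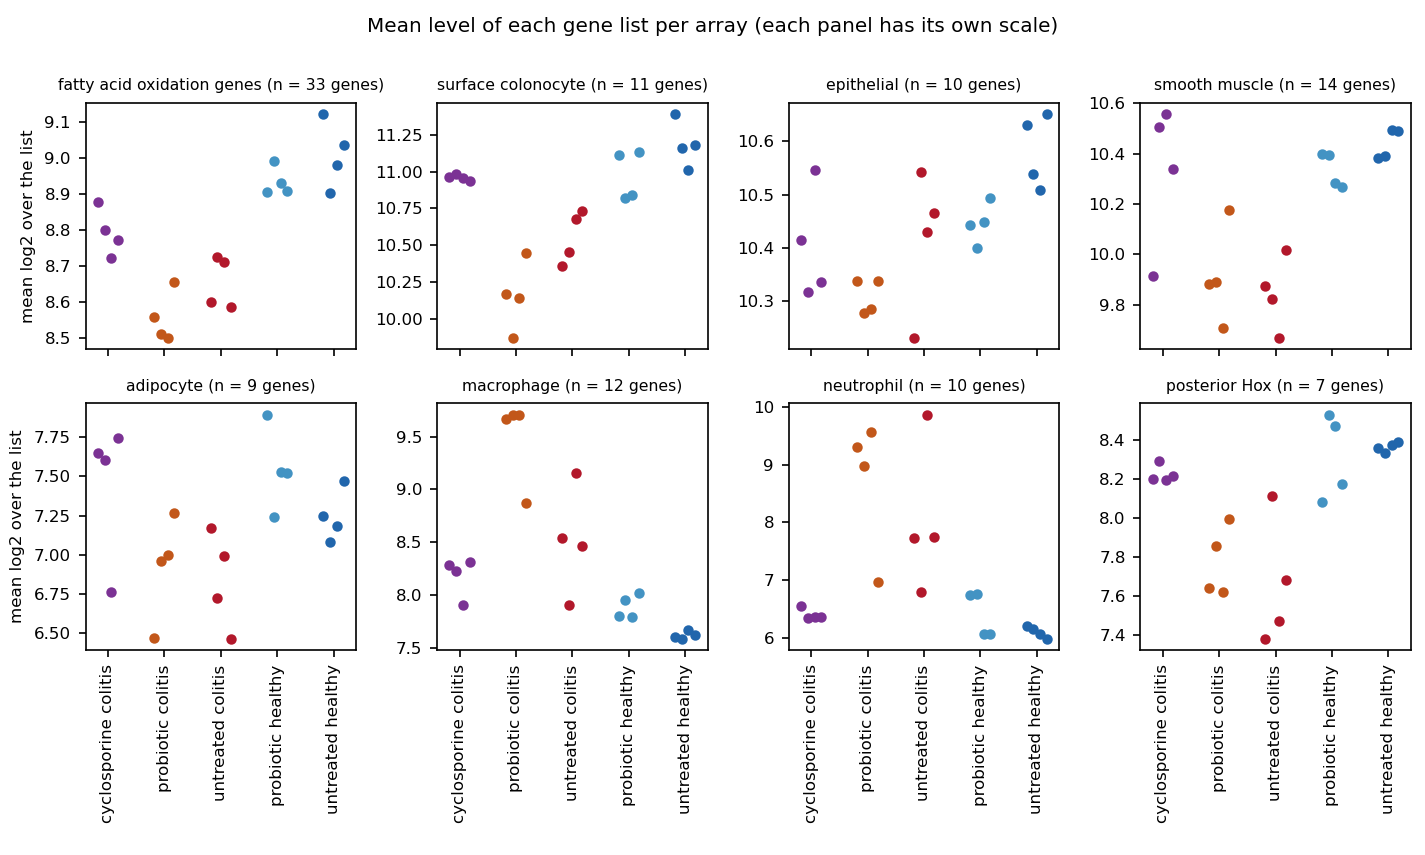
Mean log2 level per array of the 33 tested fatty acid oxidation genes and of 7 marker lists, 1 point per mouse, in the 5 groups. The fatty acid oxidation genes lie at 8.59 to 8.73 in untreated colitis and 8.90 to 9.12 in untreated healthy mice, and surface colonocyte and smooth muscle markers are also lower in untreated colitis.

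Probiotic colitis was compared with probiotic healthy to ask what DSS does in mice given the strains. Of 33 genes 27 fell, 1 rose and 5 did not pass, where 29.7% of all genes passed, 16.1% falling and 13.6% rising. The median log2 change was -0.35 over the 33 genes and -0.04 over all genes. On 22 genes all probiotic colitis arrays lay below all probiotic healthy arrays, as on 17.3% of all genes, and on 1 above, as on 13.8%. The 24 genes that fell in untreated colitis made up 24 of the 27 that fell here. The 2 comparisons share no arrays, but both take the spread of each gene from the same fit. The share of all genes that fell in both was not worked out, so this overlap cannot be weighed against it. Acads (-0.85 ± 0.12), Acaa2 (-0.85 ± 0.11), Cd36 (-0.95 ± 0.29) and Acot2 (-0.78 ± 0.16) had the lowest changes. Crat fell on its probe set with the higher mean (-0.32 ± 0.06), and its dimmer probe set did not pass (-0.16 ± 0.09, adjusted p = 0.211).

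The other 3 that fell were Acot1 (-0.47 ± 0.13), Acaa1a (-0.25 ± 0.09) and Etfa (-0.22 ± 0.07). Acsl5 rose by 0.30 ± 0.07 (adjusted p = 0.00348), with log2 levels of 9.84, 9.79, 9.57 and 9.60 in probiotic colitis mice, against 9.40, 9.30, 9.34 and 9.54 in probiotic healthy mice. Acadl (-0.06 ± 0.10), Hadhb (-0.18 ± 0.13), Acaa1b (-0.04 ± 0.13), Fabp2 (-0.29 ± 0.19) and Angptl4 (0.58 ± 0.27) did not pass. Of 28 calls 17 passed in every alternative that tested them, which is 30 except for Acot1, left out by the stricter filter, and without the 3 distant arrays 26 genes fell and 2 rose.

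The other lists moved here too, where 16.1% of all tested genes fell and 13.6% rose. Of 26 other beta-oxidation genes 13 fell and 1 rose, of 16 regulators 7 fell, and of 9 short-chain fatty acid genes 5 fell and 3 rose. Surface colonocyte markers fell in 7 of 11 and rose in 2, at mean log2 levels per array of 9.87 to 10.45 in probiotic colitis and 10.82 to 11.13 in probiotic healthy mice. Smooth muscle markers fell in 9 of 14 (9.71 to 10.18 in probiotic colitis, 10.27 to 10.40 in probiotic healthy), and macrophage markers rose in 12 of 12 (8.87 to 9.71 in probiotic colitis, 7.80 to 8.02 in probiotic healthy). Neutrophil markers rose in 9 of 10 (6.97 to 9.57 in probiotic colitis, 6.06 to 6.76 in probiotic healthy), T cell markers in 7 of 7, B and plasma cell markers in 7 of 7 and endothelial markers in 3 of 9. Posterior Hox genes fell in 6 of 7 (7.62 to 7.99 in probiotic colitis, 8.08 to 8.53 in probiotic healthy), general epithelial markers in 3 of 10 and adipocyte markers in 2 of 9. The part of these shifts in the 27 falls was not tested.

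Leaving out 1 array ended the calls of 10 of these genes. Without probiotic colitis mouse 7 those of Echs1, Decr1, Acaa1a, Ehhadh, Etfa, Etfb, Slc25a20 and Bdh1 were lost, without mouse 5 the same genes apart from Slc25a20, without mouse 3 those of Echs1, Decr1, Ehhadh and Cd36, and without mouse 8 those of Acaa1a and Etfb. Without probiotic healthy mouse 4 those of Echs1, Decr1, Acaa1a, Ehhadh and Etfa were lost, without mouse 5 those of Decr1, Acaa1a and Ehhadh, without mouse 6 those of Echs1, Decr1, Eci2, Etfb and Slc25a20, and without mouse 7 those of Echs1, Acaa1a and Etfb. Echs1 and Acaa1a were also lost without single arrays of other groups, which share the spread: cyclosporine colitis mouse 4 or 7, untreated colitis mouse 7 or untreated healthy mouse 4 for both, cyclosporine colitis mouse 10, untreated colitis mouse 10 or untreated healthy mouse 7 for Echs1, and untreated healthy mouse 6 for Acaa1a. The adjusted p reached 0.173 for Echs1, 0.145 for Decr1, 0.139 for Acaa1a, 0.107 for Etfa, 0.0989 for Ehhadh, 0.0881 for Etfb, 0.0753 for Cd36, 0.0678 for Eci2, 0.054 for Bdh1 and 0.0528 for Slc25a20.

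**Figure D4:**
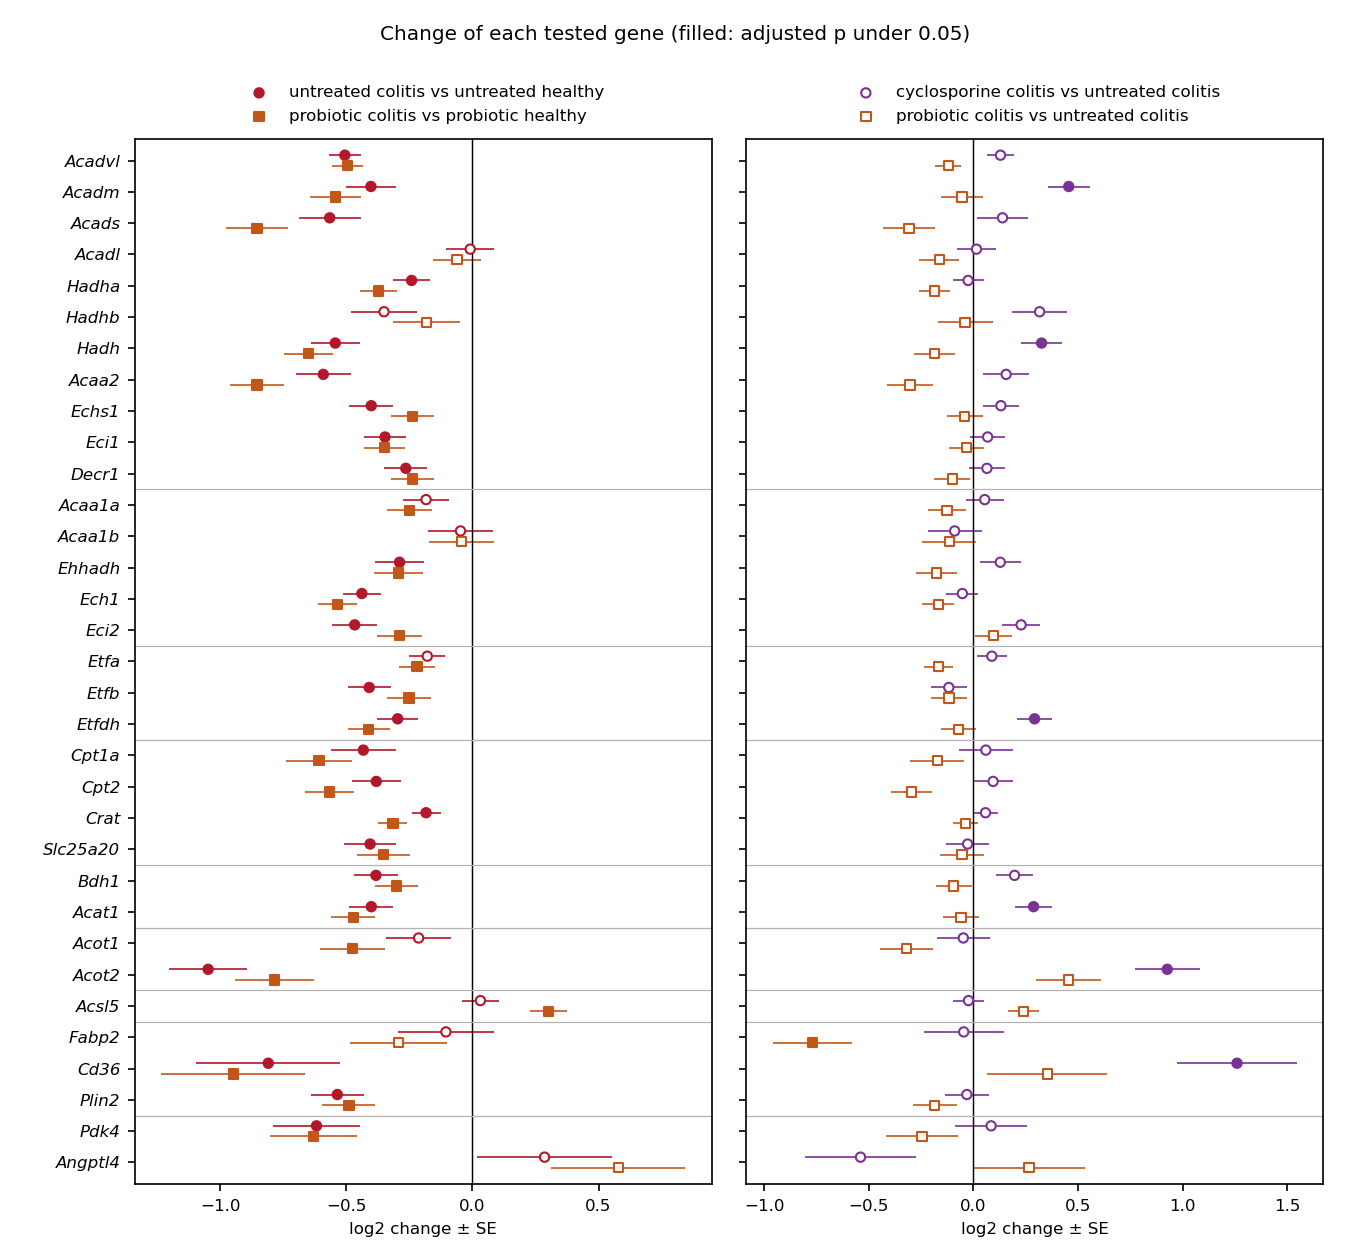
Log2 change ± SE of the 33 tested genes, in blocks by role from the matrix enzymes at the top to Pdk4 and Angptl4 at the bottom; filled symbols passed at an adjusted p under 0.05. On the left are both colitis groups against their own healthy groups, where most symbols lie below 0, and on the right cyclosporine and probiotic colitis against untreated colitis, where Cd36 and Acot2 lie highest with cyclosporine.

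The difference of the 2 colitis responses was tested as an interaction. By limma 0 of the 33 genes passed, with 1 at an unadjusted p under 0.05. Of all 16739 genes 0% passed, with 1446 at an unadjusted p under 0.05. The differences ranged over -0.29 for Acads to 0.29 for Angptl4. Acsl5, the gene under the unadjusted threshold, differed by 0.27 ± 0.10 (adjusted p = 0.517, 95% interval 0.06 to 0.48).

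Probiotic healthy was set against untreated healthy to ask whether the strains change these genes without colitis. By limma 0 of the 33 genes passed, with 5 at an unadjusted p under 0.05. Of all 16739 genes 0% passed, with 1511 at an unadjusted p under 0.05. The smallest adjusted p was 0.391, for Etfb (-0.28 ± 0.09). On 6 genes, Acadvl, Hadh, Etfa, Etfb, Bdh1 and Plin2, all 4 probiotic arrays lay below all 4 untreated arrays, as on 2.98% of all genes, and on Cd36 all 4 lay above, as on 4.1%. Cd36 had log2 levels of 9.09, 8.76, 8.999 and 8.83 in probiotic healthy mice, against 8.52, 8.31, 8.31 and 8.56 in untreated healthy mice, a change of 0.49 ± 0.29 that did not pass (adjusted p = 0.631). Of 9 endothelial markers 8 also lay above on every array (8 at an unadjusted p under 0.05), at mean log2 levels per array of 7.73 to 7.80 in probiotic healthy and 7.15 to 7.47 in untreated healthy mice. Of 12 macrophage markers 4 lay above on every array, at 7.80 to 8.02 in probiotic healthy and 7.59 to 7.67 in untreated healthy mice. Epithelial means were 10.40 to 10.49 in probiotic healthy and 10.51 to 10.65 in untreated healthy mice. Adipocyte means were 7.24 to 7.89 in probiotic healthy mice, highest in mouse 4 and lowest in mouse 5, as for Cd36. They were 7.08 to 7.47 in untreated healthy mice. Of 9 adipocyte markers 8 were higher in probiotic healthy mice and 1 lower, with 0 at an unadjusted p under 0.05. No gene of these lists passed, and their part in the differences of the 7 genes was not tested.

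Probiotic colitis against untreated colitis asks whether the strains change these genes under DSS. Of 33 genes Fabp2 alone passed, falling, where 2.8% of all genes passed, 0.669% falling and 2.13% rising. The median log2 change was -0.12 over the 33 genes and -0.02 over all genes. Fabp2 had log2 levels of 6.95, 6.31, 6.61 and 7.09 in probiotic colitis mice, against 7.28, 7.54, 7.48 and 7.73 in untreated colitis mice. The groups did not overlap, and the change was -0.77 ± 0.19 (adjusted p = 0.0391). It was also lower, without passing, in probiotic healthy (6.62 to 7.43) than in untreated healthy mice (7.28 to 7.96), by -0.58 ± 0.19 (adjusted p = 0.41).

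The call of Fabp2 was lost without probiotic colitis mouse 3, 5 or 7, untreated colitis mouse 6, 7 or 10, probiotic healthy mouse 5 or untreated healthy mouse 4 (adjusted p = 0.0502 to 0.147). Leaving out probiotic colitis mouse 8 gave 3 calls among the 33 genes, and leaving out untreated healthy mouse 2, or all 3 distant arrays, gave 2. Beside it, macrophage markers rose in 10 of 12 (mean log2 level per array 8.87 to 9.71 in probiotic colitis, 7.90 to 9.15 in untreated colitis) and surface colonocyte markers fell in 2 of 11 (9.87 to 10.45 in probiotic colitis, 10.36 to 10.73 in untreated colitis). Posterior Hox means lay at 7.62 to 7.99 in probiotic colitis and 7.38 to 8.11 in untreated colitis mice. Endothelial markers rose in 2 of 9 and T cell markers in 1 of 7. How far these shifts enter the change of Fabp2 was not tested.

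Other genes stood apart on every array without passing in this comparison. Acot2 had log2 levels of 8.45, 8.47, 8.47 and 8.78 in probiotic colitis mice, all above the 7.93 to 8.22 of untreated colitis mice, with a change of 0.45 ± 0.16 (adjusted p = 0.121). Acsl5 was above on every array too (0.24 ± 0.07, adjusted p = 0.079). Below on every array, beside Fabp2, were Acads (-0.31 ± 0.12), Acadl (-0.16 ± 0.10), Hadha (-0.19 ± 0.07) and Cpt2 (-0.30 ± 0.10). In all 5 of the 33 genes were below and 2 above without overlap, as were 4.28% and 3.63% of all genes. Among the other genes of the pathway Abcd3, a peroxisomal acyl-CoA transporter, fell (-0.43 ± 0.10, adjusted p = 0.0281).

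Cyclosporine colitis against untreated colitis asks whether the drug, with its vehicle, changes these genes under DSS. Of 33 genes 6 rose and the other 27 did not pass, where 13.2% of all genes passed, 7.58% rising and 5.58% falling. The 6 genes came from different steps: Cd36, Acadm, Hadh, Etfdh, Acat1 and Acot2. The median log2 change was 0.08 over the 33 genes and -0.01 over all genes. On 3 genes all cyclosporine arrays lay above all untreated colitis arrays, as on 8.11% of all genes, and on 0 all lay below, as on 6.86%.

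Acot2 had log2 levels of 9.15, 9.30, 8.56 and 9.04 in cyclosporine colitis mice, against 8.18, 8.03, 8.22 and 7.93 in untreated colitis mice. Every cyclosporine array lay above every untreated one, mouse 9 being the lowest, and the change was 0.93 ± 0.16 (adjusted p = 0.000855, 1.90-fold). Its neighbour Acot1 changed by -0.05 ± 0.13. Acadm had 10.98, 10.86, 10.90 and 10.85 in cyclosporine colitis mice, against 10.38, 10.77, 10.29 and 10.34 in untreated colitis mice. The groups did not overlap, although untreated mouse 6 came close, and the change was 0.46 ± 0.10 (adjusted p = 0.00588). Etfdh had 10.40, 10.24, 10.29 and 10.21 in cyclosporine colitis mice, against 9.84, 10.18, 9.92 and 10.02 in untreated colitis mice. Its groups did not overlap either, and the change was 0.29 ± 0.08 (adjusted p = 0.0242).

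Hadh had log2 levels of 11.81, 11.78, 11.78 and 11.61 in cyclosporine colitis mice, against 11.34, 11.71, 11.17 and 11.46 in untreated colitis mice. Cyclosporine mouse 10 was the low one and lay below untreated mouse 6, and the change was 0.33 ± 0.10 (adjusted p = 0.0331). Acat1 had 11.33, 11.26, 11.07 and 11.29 in cyclosporine colitis mice, against 10.89, 11.09, 10.83 and 11.01 in untreated colitis mice. Only cyclosporine mouse 9 overlapped with the untreated mice, below their mouse 6, and the change was 0.29 ± 0.09 (adjusted p = 0.0354).

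Cd36 had log2 levels of 9.13, 9.03, 7.99 and 9.37 in cyclosporine colitis mice, against 8.30, 7.14, 7.78 and 7.25 in untreated colitis mice. Cyclosporine mouse 9 lay below untreated mouse 5 and the other 3 above all untreated mice, and the change was 1.26 ± 0.29 (adjusted p = 0.00707, 2.39-fold). The mean of the 9 adipocyte markers lay at 6.77 to 7.74 in cyclosporine colitis, lowest in mouse 9 and highest in mouse 10, as for Cd36. It lay at 6.47 to 7.17 in untreated colitis, highest in mouse 5, as for Cd36, and lowest in mouse 10. Among adipocyte markers 1 of 9 rose, Retn (1.51 ± 0.46), and Lep changed by 0.48 ± 0.18 without passing. All 9 were higher with cyclosporine, 5 at an unadjusted p under 0.05, where 4681 of all 16739 genes were under it in either direction. The median log2 change of the 9 was 0.48, against -0.01 over all genes. Endothelial means lay at 7.57 to 7.81 in cyclosporine colitis and 7.18 to 7.89 in untreated colitis mice. Whether these markers account for any of the change of Cd36 was not tested.

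**Figure D5:**
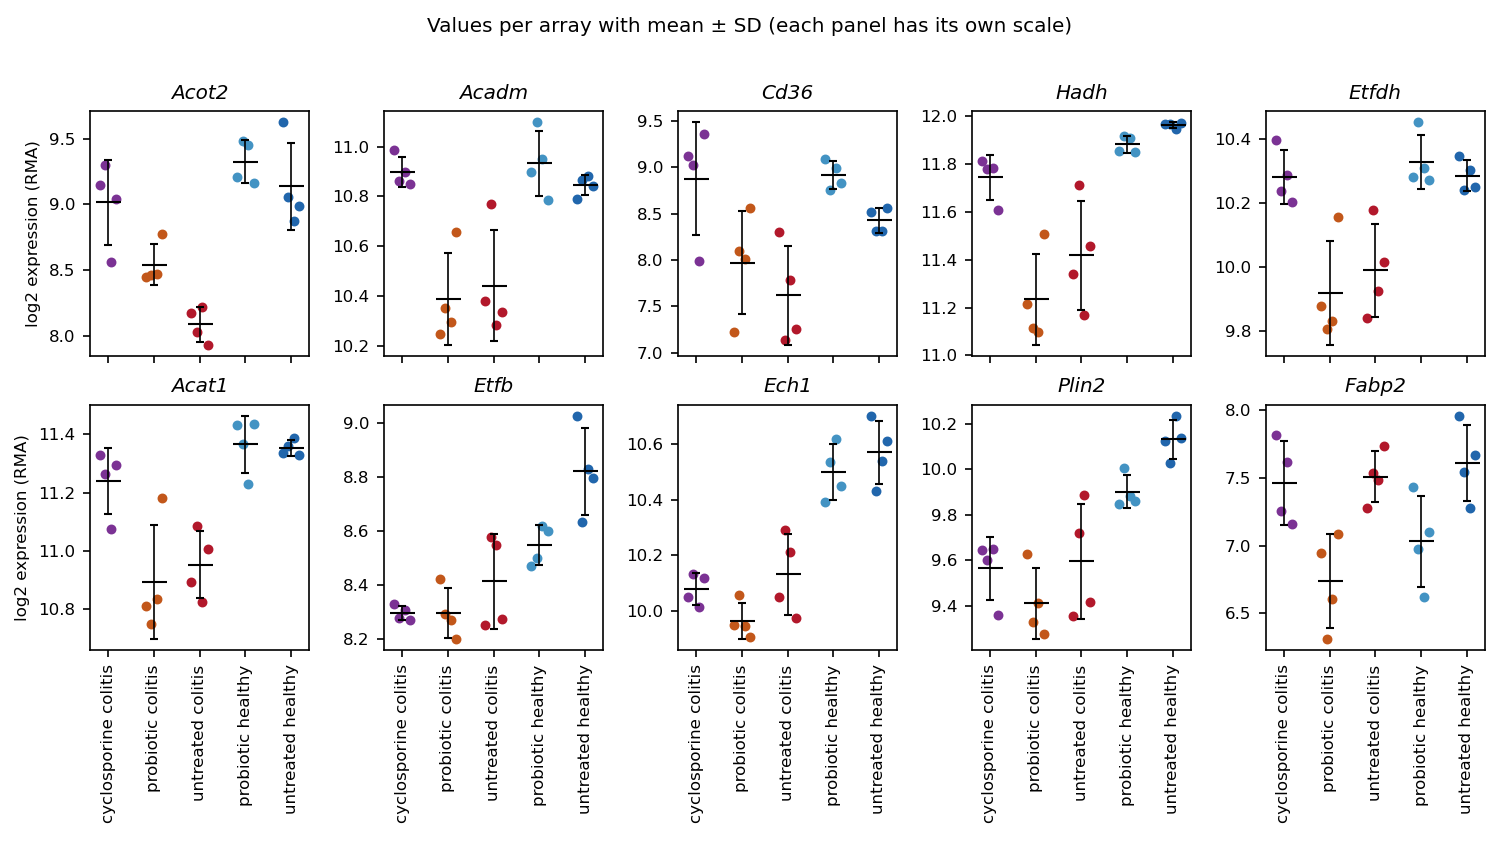
Log2 level of 10 of the genes on each array (points) with the group mean ± SD (bars, n = 4 mice), in cyclosporine colitis, probiotic colitis, untreated colitis, probiotic healthy and untreated healthy mice, each panel on its own scale. Acot2, Acadm and Etfdh are higher on every cyclosporine array than on every untreated colitis array, Etfb, Ech1 and Plin2 are low in all 3 colitis groups, and Fabp2 is lowest in probiotic colitis.

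Acadm, Acot2 and Cd36 passed in all 30 alternatives, and 9 genes rose without the 3 distant arrays. The call of Hadh was lost without any 1 of untreated colitis mice 5, 7 and 10 and cyclosporine mice 4, 7 and 9 (adjusted p = 0.0513 to 0.12), that of Etfdh without untreated colitis mouse 5 or 7 or cyclosporine colitis mouse 4 (adjusted p = 0.0692 to 0.0792), and that of Acat1 without any 1 of untreated colitis mice 5 and 7 and cyclosporine mice 4, 7 and 10 (adjusted p = 0.0703 to 0.109). The count fell to 3 without cyclosporine colitis mouse 4 or untreated colitis mouse 5.

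Other genes of the pathway gave 7 that rose and 1 that fell among 26 of beta-oxidation and ketone bodies, led by Eci3 (0.83 ± 0.13) and Acadsb, a branched-chain dehydrogenase (0.44 ± 0.08). Among 9 short-chain fatty acid genes 4 rose and 2 fell, with the synthetase Acss1 (0.65 ± 0.14) and Slc16a1 (0.47 ± 0.10) higher. Of 16 regulators 1 rose, the coactivator Ppargc1a (0.70 ± 0.23, adjusted p = 0.0478). Pdk2 (0.72 ± 0.12) and Pdp2 (0.55 ± 0.11) were the 2 that rose among 20 pyruvate dehydrogenase and glycolysis genes, of which 2 fell. Of 12 lipid droplet genes 3 rose, among them Pnpla2 (0.37 ± 0.09) and Mgll (0.30 ± 0.08), and of 22 uptake genes 1 rose, Slc27a1 (0.31 ± 0.10), and 1 fell, Slc27a2 (-0.82 ± 0.21). Beside these counts, 7.58% of all tested genes rose and 5.58% fell in this comparison.

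Marker lists moved with cyclosporine as well. Surface colonocyte markers rose in 7 of 11 and fell in 1, at mean log2 levels per array of 10.94 to 10.99 in cyclosporine colitis and 10.36 to 10.73 in untreated colitis mice. Smooth muscle markers rose in 11 of 14 (9.92 to 10.56 in cyclosporine colitis, 9.67 to 10.02 in untreated colitis) and posterior Hox genes in 4 of 7 (8.19 to 8.29 in cyclosporine colitis, 7.38 to 8.11 in untreated colitis). Neutrophil markers fell in 3 of 10 (6.34 to 6.54 in cyclosporine colitis, 6.79 to 9.87 in untreated colitis). General epithelial means overlapped, at 10.32 to 10.55 in cyclosporine colitis and 10.23 to 10.54 in untreated colitis mice. B and plasma cell markers fell in 2 of 7, T cell markers in 1 of 7 and macrophage markers in 1 of 12, and endothelial markers rose in 1 of 9. The part of these shifts in the 6 rises was not tested.

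Cyclosporine colitis was also set against untreated healthy, which shares its arrays with the comparisons above. Of 33 genes 8 fell and 25 did not pass, where 6.02% of all genes passed, 3.38% falling and 2.64% rising. The median log2 change was -0.22 over the 33 genes and -0.03 over all genes. Plin2 (-0.57 ± 0.11), Etfb (-0.53 ± 0.09), Ech1 (-0.49 ± 0.08) and Acadvl (-0.38 ± 0.06) fell with the smallest p, and Acads (-0.43 ± 0.12), Acaa2 (-0.43 ± 0.11), Slc25a20 (-0.43 ± 0.10) and Hadha (-0.27 ± 0.07) fell too.

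The per-array values show how tight some of these levels were. Etfb had log2 levels of 8.33, 8.28, 8.31 and 8.27 in cyclosporine colitis mice, against 9.03, 8.63, 8.83 and 8.80 in untreated healthy mice. Ech1 had 10.05, 10.13, 10.01 and 10.12 in cyclosporine colitis mice, against 10.70, 10.43, 10.54 and 10.61 in untreated healthy mice. Plin2 had 9.64, 9.60, 9.65 and 9.36 in cyclosporine colitis mice, against 10.12, 10.03, 10.23 and 10.14 in untreated healthy mice. Every cyclosporine array of these 3 genes was below every healthy array. Against untreated colitis they changed by -0.12 ± 0.09 (Etfb), -0.05 ± 0.08 (Ech1) and -0.03 ± 0.11 (Plin2) with cyclosporine, and none of the 3 passed there.

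Against untreated healthy mice, the 6 genes that rose with cyclosporine over untreated colitis changed by -0.12 ± 0.16 (Acot2), 0.05 ± 0.10 (Acadm), -0.0043 ± 0.08 (Etfdh), -0.22 ± 0.10 (Hadh), -0.11 ± 0.09 (Acat1) and 0.45 ± 0.29 (Cd36), and none of the 6 passed. On 15 of the 33 genes all 4 cyclosporine arrays lay below all 4 healthy arrays, as on 8.19% of all genes, and Hadh was one of them (adjusted p = 0.178). On 0 genes all lay above, as on 6.55% of all genes. Mean levels per array of surface colonocyte markers were 10.94 to 10.99 in cyclosporine colitis and 11.01 to 11.39 in untreated healthy mice. Of these 11 markers 2 fell. General epithelial markers fell in 2 of 10 with a median log2 change of -0.20, at 10.32 to 10.55 in cyclosporine colitis and 10.51 to 10.65 in untreated healthy mice. Macrophage markers rose in 3 of 12 and lay above on every array in 7, at 7.90 to 8.31 in cyclosporine colitis and 7.59 to 7.67 in untreated healthy mice. T cell markers rose in 2 of 7, endothelial markers in 2 of 9 and neutrophil markers in 1 of 10. Smooth muscle means overlapped, at 9.92 to 10.56 in cyclosporine colitis and 10.38 to 10.50 in untreated healthy mice. The part of these shifts in the changes of the 33 genes was not tested.

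All 8 calls against healthy mice were lost in at least 1 alternative, and 6 genes fell without the 3 distant arrays. Those of Acadvl, Ech1, Etfb and Plin2 passed without any single array. The call of Acads was lost without any 1 cyclosporine or untreated healthy mouse, and without probiotic colitis mouse 3, 5 or 7, probiotic healthy mouse 6 or 7 or untreated colitis mouse 10 (adjusted p = 0.0515 to 0.116). Hadha was lost without any 1 cyclosporine mouse, untreated healthy mouse 2, 6 or 7 or probiotic colitis mouse 3 (adjusted p = 0.0509 to 0.131). Acaa2 was lost without cyclosporine mouse 4, 9 or 10 or untreated healthy mouse 2, 6 or 7 (adjusted p = 0.0519 to 0.0818), and Slc25a20 without cyclosporine mouse 9 or 10 or untreated healthy mouse 2 or 7 (adjusted p = 0.0549 to 0.0707). The count was 4 without cyclosporine mouse 9 or 10 or untreated healthy mouse 2 or 7, and 5 without cyclosporine mouse 4.

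Cyclosporine colitis against probiotic colitis set the treatments side by side. Of 33 genes 14 rose and 2 fell, where 23.2% of all genes passed, 11.3% rising and 12% falling. The median log2 change was 0.25 over the 33 genes and 0.01 over all genes, and on 11 genes all cyclosporine arrays lay above all probiotic arrays, as on 9.95% of all genes. On 1 gene they all lay below, as on 11.1%. The matrix enzymes that rose were Acadm (0.51 ± 0.10), Hadh (0.51 ± 0.10), Acaa2 (0.46 ± 0.11), Acads (0.45 ± 0.12) and Acadvl (0.25 ± 0.06). Cpt2 (0.39 ± 0.10), Etfdh (0.36 ± 0.08), Etfa (0.26 ± 0.07), Ehhadh (0.30 ± 0.10), Acat1 (0.35 ± 0.09), Bdh1 (0.29 ± 0.09), Acot2 (0.47 ± 0.16), Cd36 (0.91 ± 0.29) and Fabp2 (0.72 ± 0.19) rose too.

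The 2 that fell with cyclosporine relative to the probiotic were Acsl5 (-0.26 ± 0.07, adjusted p = 0.0127) and Angptl4 (-0.80 ± 0.27, adjusted p = 0.0344). Acsl5 had log2 levels of 9.47, 9.35, 9.40 and 9.52 in cyclosporine colitis mice, against 9.84, 9.79, 9.57 and 9.60 in probiotic colitis mice, with no overlap. Angptl4 had 6.70, 6.00, 5.68 and 6.04 in cyclosporine colitis mice, against 6.95, 7.15, 7.27 and 6.27 in probiotic colitis mice, where cyclosporine mouse 4 overlapped with probiotic mouse 8. Surface colonocyte means lay at 10.94 to 10.99 in cyclosporine colitis and 9.87 to 10.45 in probiotic colitis mice, and macrophage means at 7.90 to 8.31 in cyclosporine colitis and 8.87 to 9.71 in probiotic colitis mice. Surface colonocyte markers rose in 7 of 11, smooth muscle markers in 10 of 14 (median log2 change 0.43), posterior Hox genes in 3 of 7 and adipocyte markers in 2 of 9. Macrophage markers fell in 11 of 12, neutrophil markers in 9 of 10, T cell markers in 7 of 7, B and plasma cell markers in 7 of 7 and endothelial markers in 4 of 9. The part of these shifts in the 14 rises and 2 falls was not tested.

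Without the 3 distant arrays 17 genes rose and 2 fell. Of the 16 calls 7 passed in all 30 alternatives: Acadm, Hadh, Acaa2, Etfdh, Cpt2, Acat1 and Fabp2. Without probiotic colitis mouse 7 the calls of Ehhadh, Etfa, Bdh1, Acot2, Cd36 and Angptl4 were lost, without mouse 5 those of Ehhadh, Bdh1, Acot2, Acsl5 and Angptl4, and without mouse 3 those of Ehhadh, Acot2, Acsl5, Cd36 and Angptl4. Without cyclosporine mouse 4 those of Ehhadh, Acot2 and Cd36 were lost, without mouse 7 or 10 those of Acot2, Cd36 and Angptl4, and without mouse 9 those of Ehhadh, Bdh1 and Angptl4. The adjusted p then reached 0.115 for Cd36, 0.113 for Acot2 and Angptl4, 0.0988 for Ehhadh, 0.0816 for Bdh1, 0.063 for Etfa and 0.0573 for Acsl5.

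Over the 3 colitis groups, the mean log2 level per array of the 33 genes was 8.72 to 8.88 with cyclosporine, 8.50 to 8.66 with the probiotic and 8.59 to 8.73 without treatment. It was 8.91 to 8.99 in probiotic healthy and 8.90 to 9.12 in untreated healthy mice. Every colitis array lay below every healthy array in this mean, but by a narrow margin. Cyclosporine mouse 4, the highest of the colitis arrays, was at 8.88, and untreated healthy mouse 4, the lowest healthy array, at 8.90. In probiotic colitis mouse 8 was the highest, and in untreated colitis mouse 6, the arrays that stood apart on the principal components. Means of the 26 other beta-oxidation and ketone body genes overlapped. They were 7.995 to 8.096 in cyclosporine colitis, 8.076 to 8.139 in probiotic healthy and 8.092 to 8.161 in untreated healthy mice.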

How the data were processed

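Affymetrix arrays measured total RNA of the middle colon in 20 mice, 4 in each of 5 groups taken from the labels. Per the submitters' processing notes the authors used RMA, so the deposited log2 values are background-corrected, normalized across arrays and summarised per probe set. The RMA version is not given in the sources used here. Of 41801 probe sets 29195 had values, and 22360 of these were annotated to 1 symbol, 1013 to several and 5822 to none. Each gene was read from its probe set with the highest mean, and 16739 genes above 5.30, the 25th percentile, on at least 4 arrays were tested. One fit of 5 group means over all 20 arrays (limma 3.58.1 in R 4.3.3, lmFit and eBayes) gave 8 contrasts with Benjamini-Hochberg adjustment over all tested genes. The procedure was tested on simulated data. Promoters came from RefSeq, and Python 3.11.15 with matplotlib 3.10.9 drew the figures.

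The genes and all lists were chosen with earlier results of these data known. Values on every array are given for the 12 genes with the smallest p in untreated colitis and for those that passed in probiotic or cyclosporine colitis against untreated colitis. Genes of other lists are named for the smallest p, up to 4 per list in untreated colitis and 2 per treatment comparison. Acsl5 and Angptl4 were given per array after their values were seen. Each array is a different mouse; the cage of each mouse is not given, so cage and group cannot be told apart. Alternatives changed the filter, normalization, variance model, array weights, probe set rule, block, arrays in the fit and each single array.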

Additional observations from a re-analysis of the deposited data

Results flagged for a closer look

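In 6 of 170 groups of 4 arrays (34 genes in 5 groups), 1 array lay farther from the others than Dixon's critical value for 4 samples allows, where chance gives about 5% of groups. Acads, the short-chain dehydrogenase, was high in untreated colitis mouse 6, at 9.475 on the log2 scale against 8.957 to 9.013 in the other 3 mice. Eci2 was high in untreated colitis mouse 7, at 8.018 against 7.716 to 7.764. Acot2 was high in probiotic colitis mouse 8, at 8.779 against 8.451 to 8.474. Hadh was low in cyclosporine colitis mouse 10, at 11.607 against 11.779 to 11.811. Acadl was high in untreated healthy mouse 2, at 11.312 against 10.755 to 10.835, and Crat was low in untreated healthy mouse 4, at 9.016 against 9.101 to 9.117.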

How the results depend on the processing

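No direction of a called change reversed under any of the 30 alternatives, of which 1, leaving out the 3 arrays distant from their groups, was chosen after seeing the data. Leaving out 1 array at a time gave 18 to 25 calls in untreated colitis vs untreated healthy (24 with all arrays), 20 to 28 in probiotic colitis vs probiotic healthy (28), 4 to 11 in cyclosporine colitis vs untreated healthy (8), 0 to 3 in probiotic vs untreated colitis (1), 3 to 7 in cyclosporine vs untreated colitis (6), 11 to 18 in cyclosporine vs probiotic colitis (16), and 0 in probiotic vs untreated healthy and in the interaction. Probiotic vs untreated colitis gave 5 calls with array weights (2 rose, 3 fell), 0 with the compared groups fitted alone and 2 without the 3 arrays. Cyclosporine vs untreated colitis gave 3 with the compared groups alone. The labels do not state that mouse numbers pair mice across groups. Deviations of same-numbered mice from their group means correlated at r -0.19 to 0.43 (20 pairs, median 0.02, 5 over 0.1). These values cannot settle whether the numbers pair mice, as pairs with different numbers were not set beside them. With the replicate block cyclosporine colitis vs untreated healthy gave 0 calls (8 without it) and untreated colitis vs untreated healthy 16. The cause of these changes was not tested. That block fits a term for each mouse number, which leaves fewer degrees of freedom. Untreated healthy mouse 2, probiotic colitis mice 3 and 8 and cyclosporine colitis mouse 9 have numbers that no other array shares. These arrays therefore add nothing to the contrasts of that fit. The stricter filter left out Hadhb, Acaa1b and Acot1, so it gave no value for them.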
